A study of Homo sapiens with 4 samples.

Results

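The 10 genes described here respond to, or carry, signals of the transforming growth factor beta (TGF-beta) and bone morphogenetic protein (BMP) pathways. They were taken from the 16834 genes of the deposited gene table by their symbols, and all 10 were found: the ligands TGFB1 and TGFB2, the receptor TGFBR2, the feedback inhibitors SMAD6, SMAD7, SKIL and BAMBI, and the target genes ID1, ID2 and ID3. RNA came from pancreatic ductal adenocarcinoma cells titled MIA PaCa-2 and labelled wild type, kept for 12 h without drug (control), with 1 µM neobractatin (NBT), with 5 µM trametinib, or with both drugs at the same doses (combination). NBT is a natural compound from Garcinia bracteata, and trametinib inhibits the kinases MEK1 and MEK2 of the MAPK pathway. Each condition was sequenced once on the BGISEQ-500 platform, with between 18776212 and 19614763 estimated read counts per library, so no value below has a replicate and every interval covers counting error only. Copies made by PCR are counted as separate reads, and the intervals do not widen for it. In bulk RNA, fewer cells that express a gene and less RNA per cell cannot be told apart.

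TGF-beta ligands are secreted in a latent form, are freed outside the cell and bind TGFBR2, which recruits and activates TGFBR1. The active receptor pair phosphorylates SMAD2 and SMAD3, while BMP receptors phosphorylate SMAD1, SMAD5 and SMAD9, and both groups enter the nucleus with SMAD4. ID genes are classic BMP targets whose proteins bind E proteins and keep them off DNA, and SMAD6 and SMAD7 are induced by the pathway and inhibit its receptors. The TGF-beta pathway is often broken in pancreatic ductal adenocarcinoma, most often through loss of SMAD4.

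The labels were first checked against marker genes. DUSP6, an ERK phosphatase that ERK signalling itself induces, had 329 reads in the control library, 521 with NBT, 14 with trametinib and 9 with both drugs. All 4 MAPK output genes examined (DUSP6, SPRY4, ETV4 and ETV5) fell in both trametinib libraries. With NBT alone all 4 lay above control, and ETV5 rose from 367 to 777 reads. The cell line markers did not all match the name. MIA PaCa-2 is known for a homozygous deletion of CDKN2A, yet this gene had between 2643 and 3524 reads per library. CDH1, the E-cadherin gene, for which MIA PaCa-2 is known to be poor, stood at 85.43 TPM (a level scaled to transcript length and library size) in the control library. VIM, the vimentin gene, usually strong in that line, stood at 11.48 TPM there. It rose to 23.46 TPM with trametinib alone and to 26.39 TPM with the combination. The epithelial keratin KRT18 fell from 3141.54 TPM to 1047.93 and 995.27 TPM in the same libraries. The epithelial marker EPCAM had 242.36 TPM in the control library and 218.24 TPM with the combination, and was not called. The cells are therefore called by their label only. Of the 6 markers of other cell types in the table, at least 1 read was found for 4 in the control library and for 5 in each of the others, with a summed level of 1.15, 1.64, 5.59 and 3.71 TPM in the control, NBT, trametinib and combination libraries. CDH5 had no reads in the control library and ALB none in the trametinib and combination libraries. CD3E, a T cell receptor component, had 0 reads in the control and NBT libraries, 55 with trametinib and 29 with the combination. The part of these differences in the results below was not tested.

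The stretch just before the start of each gene is where factors that set its transcription can bind, and those of ID1, ID3, SMAD6 and TGFB2 are printed because these 4 genes had the largest ratios of highest to lowest level among the members (5.45, 7.92, 5.31 and 2.99). Each shows the 250 bases before the start that RefSeq gives on GRCh38.p14, read 5′ to 3′ on the gene's own strand, with matches to the searched motifs in capitals. ID1 spans chromosome 20 from 31605289 to 31606510 on the plus strand, ID3 spans chromosome 1 from 23557926 to 23559501 on the minus strand, SMAD6 spans chromosome 15 from 66702236 to 66782849 on the plus strand, and TGFB2 spans chromosome 1 from 218345336 to 218444619 on the plus strand.
ID1, chr20:31605039-31605288, plus strand: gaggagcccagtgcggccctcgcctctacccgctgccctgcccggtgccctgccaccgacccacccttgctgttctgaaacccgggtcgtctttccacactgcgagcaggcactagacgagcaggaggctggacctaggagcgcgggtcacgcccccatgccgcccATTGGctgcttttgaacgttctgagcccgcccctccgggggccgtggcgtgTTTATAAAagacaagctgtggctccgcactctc
ID3, chr1:23559502-23559751, minus strand: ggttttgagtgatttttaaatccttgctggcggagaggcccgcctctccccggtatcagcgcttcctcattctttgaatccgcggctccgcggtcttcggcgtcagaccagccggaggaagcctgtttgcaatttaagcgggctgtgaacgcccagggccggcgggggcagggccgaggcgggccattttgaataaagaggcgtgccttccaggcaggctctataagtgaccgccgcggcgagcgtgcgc
SMAD6, chr15:66701986-66702235, plus strand: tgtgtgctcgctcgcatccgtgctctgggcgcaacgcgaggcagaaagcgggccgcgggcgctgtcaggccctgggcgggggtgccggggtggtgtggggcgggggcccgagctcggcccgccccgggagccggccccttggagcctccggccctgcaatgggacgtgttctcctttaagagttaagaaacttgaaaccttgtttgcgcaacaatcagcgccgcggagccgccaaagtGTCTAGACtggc
TGFB2, chr1:218345086-218345335, plus strand: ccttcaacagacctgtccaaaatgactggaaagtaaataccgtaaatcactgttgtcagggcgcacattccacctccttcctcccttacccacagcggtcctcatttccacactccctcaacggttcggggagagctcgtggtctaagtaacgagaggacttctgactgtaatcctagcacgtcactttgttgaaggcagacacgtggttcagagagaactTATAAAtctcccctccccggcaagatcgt

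The capitals come from a search for 8 motifs on both strands. SMAD6 held the palindrome GTCTAGAC, to which SMAD3 and SMAD4 can bind, from 12 to 5 bases before its start. This motif was in 64 of 35116 RefSeq promoter windows of the same length, or 0.182%. TATAAA, the core promoter box, began 29 bases before the start of TGFB2 and 31 bases before that of ID1, where it overlaps a match on the other strand, and was in 10.7% of windows. A CCAAT box on the other strand began 84 bases before the start of ID1, and 32.0% of windows hold that motif. ID3 held none of the motifs, which says only that these letters were not in its window. Among the other members, BAMBI had the GC-rich motif GGCGCC at 3 places (16.4% of windows have it), and SKIL had 1 such match and the cAMP response motif TGACGTCA, which was in 1.65% of windows. SMAD7 has several annotated starts, and only the window before the start at 48949333, inside the gene, held matches. These were the ETS motif CCGGAA at 2 places (14.5% of windows) and a TATAAA box. The windows before its other starts, among them the outermost at 48950965, held none. BAMBI, ID2 and TGFBR2 had CCAAT boxes, and TGFB1 had no match. No member held the AP-1 motif TGANTCA (6.57% of windows) or the ATF4 motif TGATGNAA (3.14%). The motifs were chosen with the expression values known, and a match is a description of letters, not a binding site.

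Levels below are TPM, which can be compared between genes because they are scaled to transcript length, and reads are the estimated counts rounded to whole numbers. A log2 ratio compares 2 libraries after 0.5 reads were added and each library was scaled to its sum, and is followed by its 95% interval. A gene is called when an exact binomial test of the 2 libraries' reads, Benjamini-Hochberg adjusted over all genes tested, gave at most 0.05 and the log2 ratio was at least 1 in size. This test compares libraries, not conditions. The words rose and fell are used only for called genes.

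**Figure D1:**
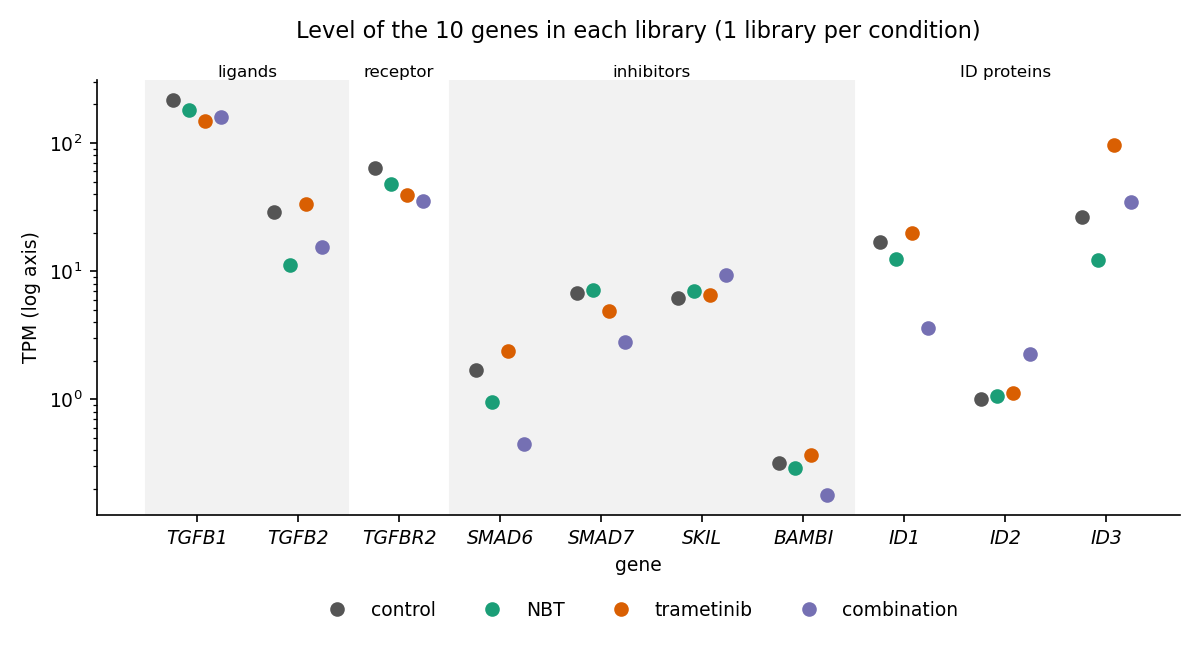
Level of each of the 10 genes in the 4 libraries, in TPM on a log axis, 1 point per library and no replicate. TGFB1 lies highest in every library (149.1 to 217.54 TPM), BAMBI lowest (0.18 to 0.37 TPM), and ID1 and SMAD6 have their lowest point in the combination library.

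Of the 10 genes, 6 were called in at least 1 of the 5 comparisons, and SKIL, BAMBI, TGFB1 and TGFBR2 in none. In the NBT library ID3 and TGFB2 fell, 2 of 10, where 2.61% of all genes tested were called (1.6% higher and 1.01% lower). In the trametinib library ID3 rose, 1 of 10, against 5.96% of all genes (3.82% higher and 2.15% lower). The combination library had 4 of 10 called against control: ID1, SMAD6 and SMAD7 fell and ID2 rose, where 8.42% of all genes were called (4.73% higher and 3.69% lower). Set against NBT alone, the combination again had 4 called, with ID1, SMAD6 and SMAD7 lower and ID3 higher, beside 4.36% of all genes (2.38% higher and 1.99% lower). Set against trametinib alone, ID1, ID3, SMAD6 and TGFB2 were lower, 4 of 10, beside 6.11% of all genes (2.56% higher and 3.55% lower). These comparisons share libraries, so their counts are not independent. The median log2 ratio of the 10 genes was -0.25 for NBT, 0.21 for trametinib and -0.77 for the combination, each against control, while that of the 12905 genes with a mean of at least 10 reads was 0.00, 0.07 and 0.03. The 10 genes were picked with earlier results of these libraries known, and the shares describe them only. Had cultures varied with a coefficient of variation of 0.2, ID1 and SMAD6 would still be called for the combination against control and ID3 for trametinib, but neither call with NBT alone, and with 0.4 none of the members would be called in any comparison.

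**Figure D2:**
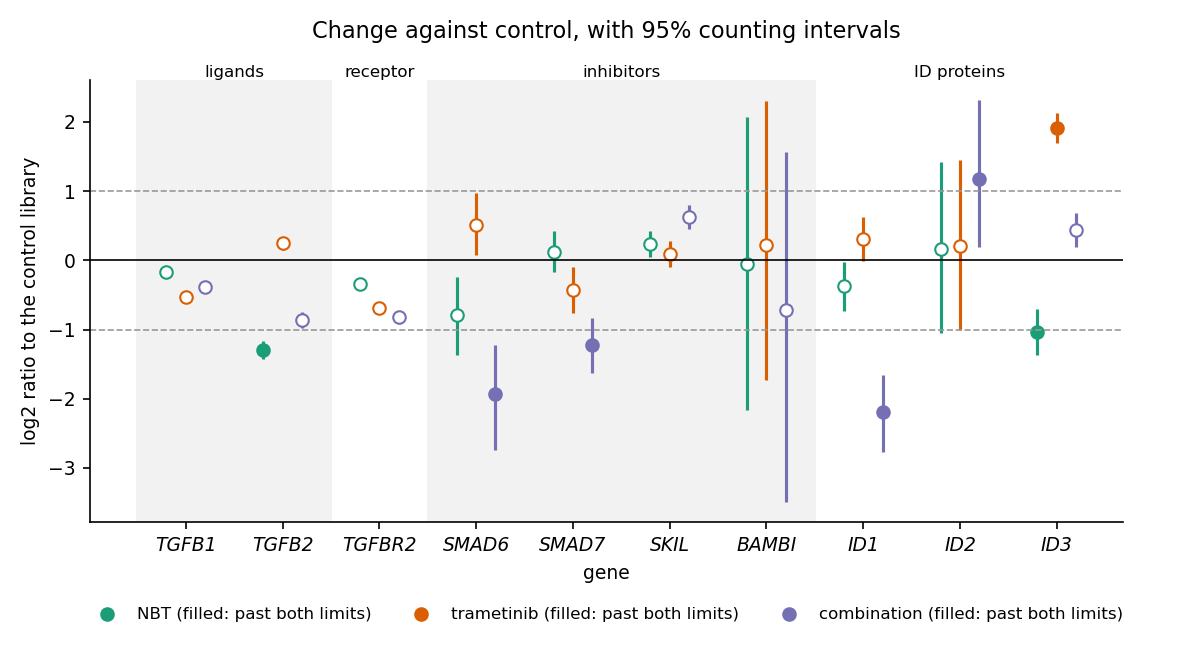
Log2 ratio of each gene to the control library (vertical axis) for NBT, trametinib and the combination, with 95% counting intervals as vertical bars, dashed lines at 1 and -1, and filled points where the gene was called. ID1, SMAD6 and SMAD7 have filled combination points below -1 (-2.18, -1.92 and -1.22), ID3 has filled points on opposite sides of 0 for the single drugs, and all 3 intervals of BAMBI span 0.

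The ID proteins did not move together. ID1 had 154 reads in the control library, 123 with NBT, 192 with trametinib and 35 with both drugs, or 16.8, 12.34, 19.73 and 3.62 TPM. The combination library is the low one, and the trametinib library is the highest. ID1 fell with the combination by 2.18 on the log2 scale against control (interval -2.77 to -1.66), by 1.81 against NBT and by 2.49 against trametinib. With NBT alone its log2 ratio was -0.37 (interval -0.73 to -0.02), which was not called. With trametinib alone its log2 ratio of 0.30 had an interval of -0.01 to 0.62, so the order of the trametinib and control levels was not resolved by the reads.

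ID3, which like ID1 blocks E proteins, had 228 reads in the control library, 115 with NBT, 863 with trametinib and 322 with both drugs. Its levels were 26.23, 12.21, 96.68 and 34.54 TPM, lowest with NBT and highest with trametinib, a range of 7.92-fold that no other member reached. ID3 rose with trametinib alone (log2 ratio 1.90, interval 1.69 to 2.12) and fell with NBT alone (log2 ratio -1.03, interval -1.37 to -0.71). The combination was below trametinib alone by a log2 ratio of -1.47 (interval -1.66 to -1.29) and above NBT alone by 1.47 (interval 1.16 to 1.79). The combination library lay between the single drugs, at a log2 ratio of 0.43 (interval 0.19 to 0.69) against control, which was not called.

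ID2 was scarce, with 12 reads in the control library, 14 with each single drug and 29 with the combination, or 1.00, 1.07, 1.13 and 2.24 TPM. It rose with the combination against control, at a log2 ratio of 1.18, but the interval of 0.20 to 2.32 is wide and the call was lost when 5 reads were added. Against NBT its log2 ratio was 1.01 and against trametinib 0.97, neither of them called. ID4 was not analysed here. Of the summed level of ID1, ID2 and ID3, ID1 held 38.2% in the control library, 48.2% with NBT, 16.8% with trametinib and 8.96% with both drugs. The level of ID3 was thus 1.56 times that of ID1 in the control library, 0.989 times with NBT, 4.90 times with trametinib and 9.54 times with both drugs. The sum of the 3 genes was 44.03 TPM in the control library, 25.62 TPM with NBT, 117.54 TPM with trametinib and 40.4 TPM with both drugs. The control and combination libraries thus had similar sums with unlike shares of the same genes.

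The inhibitory SMADs had their lowest levels in the combination library. SMAD6, which mainly restrains BMP receptors and SMAD1, had 74 reads in the control library, 44 with NBT, 107 with trametinib and 20 with both drugs (1.69, 0.96, 2.39 and 0.45 TPM). It fell with the combination by 1.92 against control (interval -2.74 to -1.22), by 1.13 against NBT (interval -1.99 to -0.36) and by 2.44 against trametinib (interval -3.24 to -1.77), all on the log2 scale. The single drugs lay on opposite sides of the control, at log2 ratios of -0.79 for NBT and 0.52 for trametinib, and neither was called. The call against NBT alone was lost when 5 reads were added and when TPM values were used.

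SMAD7, which blocks the TGF-beta receptor and brings ubiquitin ligases to it, had 177 reads in the control library, 200 with NBT, 133 with trametinib and 79 with both drugs (6.70, 7.12, 4.86 and 2.79 TPM). It fell with the combination against control (log2 ratio -1.22, interval -1.63 to -0.84) and against NBT (log2 ratio -1.35, interval -1.75 to -0.97). Against trametinib its log2 ratio of -0.80 was under the limit of size. NBT and control were not resolved from each other, with a log2 ratio of 0.13 and an interval of -0.17 to 0.43. Within this pair SMAD7 had 3.96 times the level of SMAD6 in the control library, 7.42 times with NBT, 2.03 times with trametinib and 6.20 times with both drugs.

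The other inhibitors were not called. SKIL, also known as SnoN, a nuclear repressor of SMAD target genes, had 427 reads in the control library, 519 with NBT, 459 with trametinib and 687 with both drugs (6.20, 7.01, 6.50 and 9.29 TPM). Its log2 ratio for the combination against control was 0.62 (interval 0.45 to 0.80), positive where those of SMAD6 and SMAD7 were negative. BAMBI, a decoy receptor without a kinase domain, had 5, 5, 6 and 3 reads in the control, NBT, trametinib and combination libraries, and no difference was detectable at this depth.

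Among the ligands and the receptor, TGFB2 alone was called. TGFB2 had 1611 reads in the control library, 680 with NBT, 1924 with trametinib and 925 with both drugs (28.68, 11.14, 33.30 and 15.29 TPM). Both libraries with NBT were below both libraries without it. It fell with NBT alone by 1.29 on the log2 scale (interval -1.43 to -1.16), and it fell by 1.11 when NBT was added to trametinib (interval -1.22 to -0.99). The combination against control gave -0.86 (interval -0.98 to -0.75), which was under the limit of size, and trametinib alone gave 0.24 (interval 0.15 to 0.34).

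TGFB1, the most abundant member, had 4743 reads in the control library, 4368 with NBT, 3315 with trametinib and 3796 with both drugs, or 217.54, 180.94, 149.1 and 158.27 TPM. In the control library this level exceeded that of 95.8% of all genes. Its log2 ratios against control were -0.17, -0.53 and -0.38, all with intervals that leave out 0 and all under the limit of size. TGFB1 had 7.59 times the level of TGFB2 in the control library, 16.2 times with NBT, 4.48 times with trametinib and 10.4 times with both drugs.

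TGFBR2, the receptor that binds the ligand, had 2706 reads in the control library, 2218 with NBT, 1700 with trametinib and 1595 with both drugs (63.95, 48.03, 38.98 and 34.99 TPM). The control library was highest and the combination library lowest, at log2 ratios of -0.34, -0.68 and -0.83 for the 3 treatments in that order. The combination differed from trametinib alone by a log2 ratio of only -0.14 (interval -0.24 to -0.04). None of these reached the limit of size. TGFBR1, the partner receptor, had 809, 787, 550 and 773 reads in the 4 libraries, and was not called either.

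The series was designed around the use of both drugs, so the log2 ratio of the combination was set against the value obtained by adding those of NBT and trametinib. ID1 and SMAD6 departed from that sum by at least 1 with an interval that leaves out 0, 2 of the 8 members with at least 50 reads in some library, where 2.23% of the 11367 such genes did. For ID1 the single drugs summed to -0.07 and the combination gave -2.18, a departure of -2.12 (interval -2.73 to -1.50). For SMAD6 they summed to -0.28 and the combination gave -1.92, a departure of -1.65 (interval -2.51 to -0.78). SMAD7 had a departure of -0.92 (interval -1.42 to -0.43), just short of the limit. ID3, called with each single drug, departed by only -0.44 (interval -0.81 to -0.06). The 4 remaining members, SKIL, TGFB1, TGFB2 and TGFBR2, had departures between 0.19 and 0.31. ID2 and BAMBI had too few reads, with intervals from -0.61 to 2.23 and from -3.43 to 1.64.

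**Figure D3:**
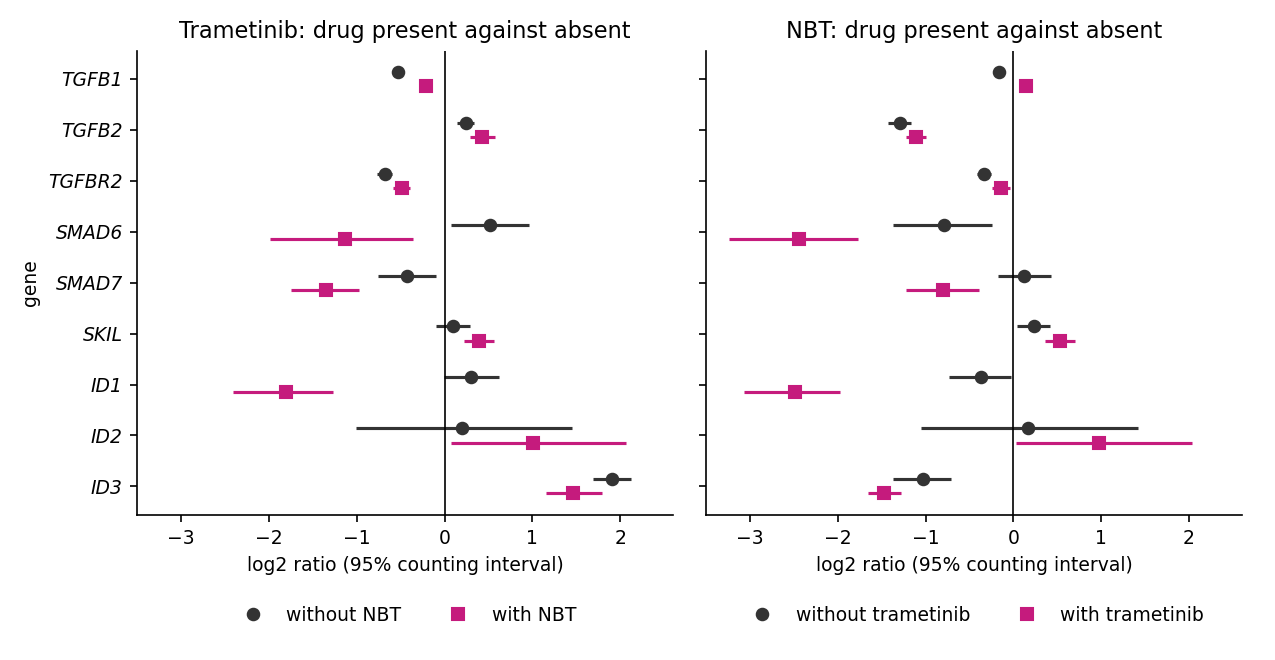
Log2 ratio for the presence of 1 drug, with its 95% counting interval, in the absence (circles) and the presence (squares) of the other drug, for trametinib (left) and NBT (right), without BAMBI. In the left panel ID1 and SMAD6 lie at 0.30 and 0.52 without NBT and at -1.81 and -1.13 with it, and in the right panel both lie farther left with trametinib, at -2.49 and -2.44.

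The transcript table splits each gene's reads between RefSeq transcripts by estimation, and gives no error for the split. ID2, ID3 and BAMBI have 1 transcript each. The minor ID1 transcript NM_181353.3 was given 12.93 reads in the control library, 12.15 with NBT, 46.43 with trametinib and 0 with both drugs, and the major transcript NM_002165.4 had 141.07, 110.85, 145.57 and 35. Both ID1 transcripts were thus lowest in the combination library. For TGFB2 the 2 transcripts differed. NM_003238.6 had 1549.39 reads in the control library, 579.26 with NBT, 1742.37 with trametinib and 749.1 with both drugs, with the NBT libraries low as in the gene's total. NM_001135599.3 had 61.61, 100.74, 181.63 and 175.9 reads in the same order, so its lowest library was the control. Its share of the gene's TPM was 3.73% in the control library and 18.6% in the combination library.

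For TGFBR2, transcript NM_001024847.2 held 13.0% of the gene's TPM in the control library, 16.4% with NBT, 7.06% with trametinib and 6.12% with both drugs, low in the libraries with trametinib. The 2 SMAD6 transcripts were both lowest in the combination library, at 13.24 and 6.76 reads. Assignments for SMAD7 jumped between transcripts: NM_005904.3 had 122.28 reads in the control library and 0.13 in the combination library, while NM_001190821.1 had 0 in the control library and 54.73 in the combination library. The 6 SKIL transcripts also exchanged reads between libraries, and for these 2 genes only the gene totals are read here.

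**Figure D4:**
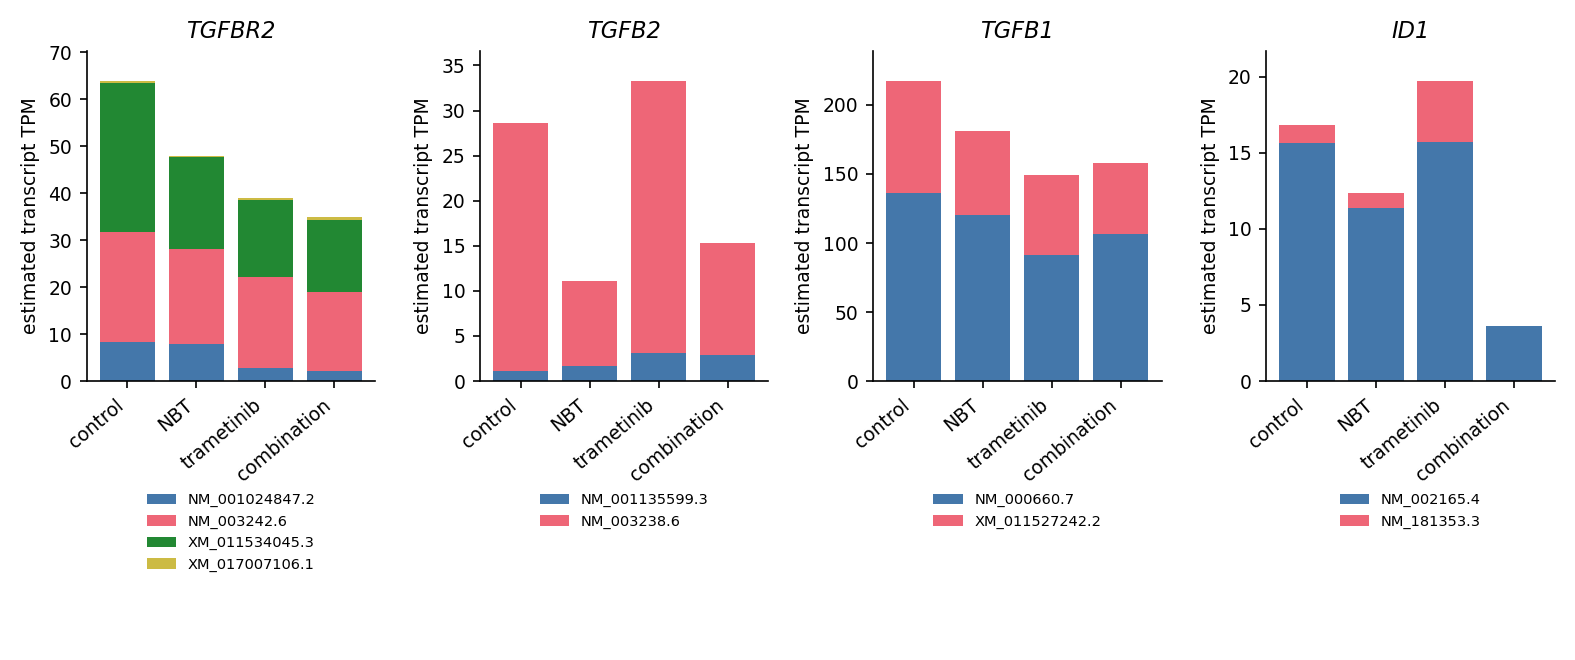
Estimated TPM of each RefSeq transcript of TGFBR2, TGFB2, TGFB1 and ID1, stacked to the gene's level in the 4 libraries, with an axis of its own for each gene. The lower segment of TGFB2, transcript NM_001135599.3, is 1.07 TPM in the control library and 2.85 TPM in the combination library while the whole bar goes from 28.68 to 15.29 TPM.

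The wider pathway was described by 9 overlapping lists of ligands, activators, receptors, SMADs, inhibitors and targets, with 116 genes other than the members, of which 105 were in the gene table. Against control, 1 of the 98 tested was called higher and 2 lower with NBT, or 3.06% beside 2.61% of all genes tested. With trametinib 8 of 101 were called higher and 12 lower, or 19.8% beside 5.96%. With the combination 4 of 101 were called higher and 12 lower, or 15.84% beside 8.42%. The combination against NBT gave 6 higher and 10 lower of 98 (16.33% beside 4.36%), and against trametinib 4 higher and 5 lower of 104 (8.65% beside 6.11%). Their median log2 ratio was -0.04, -0.07 and -0.14 in the 3 comparisons with control, over 78 genes with a mean of at least 10 reads, beside 0.00, 0.07 and 0.03 over all such genes. The lists were picked with earlier results known, so these shares are descriptions.

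**Figure D5:**
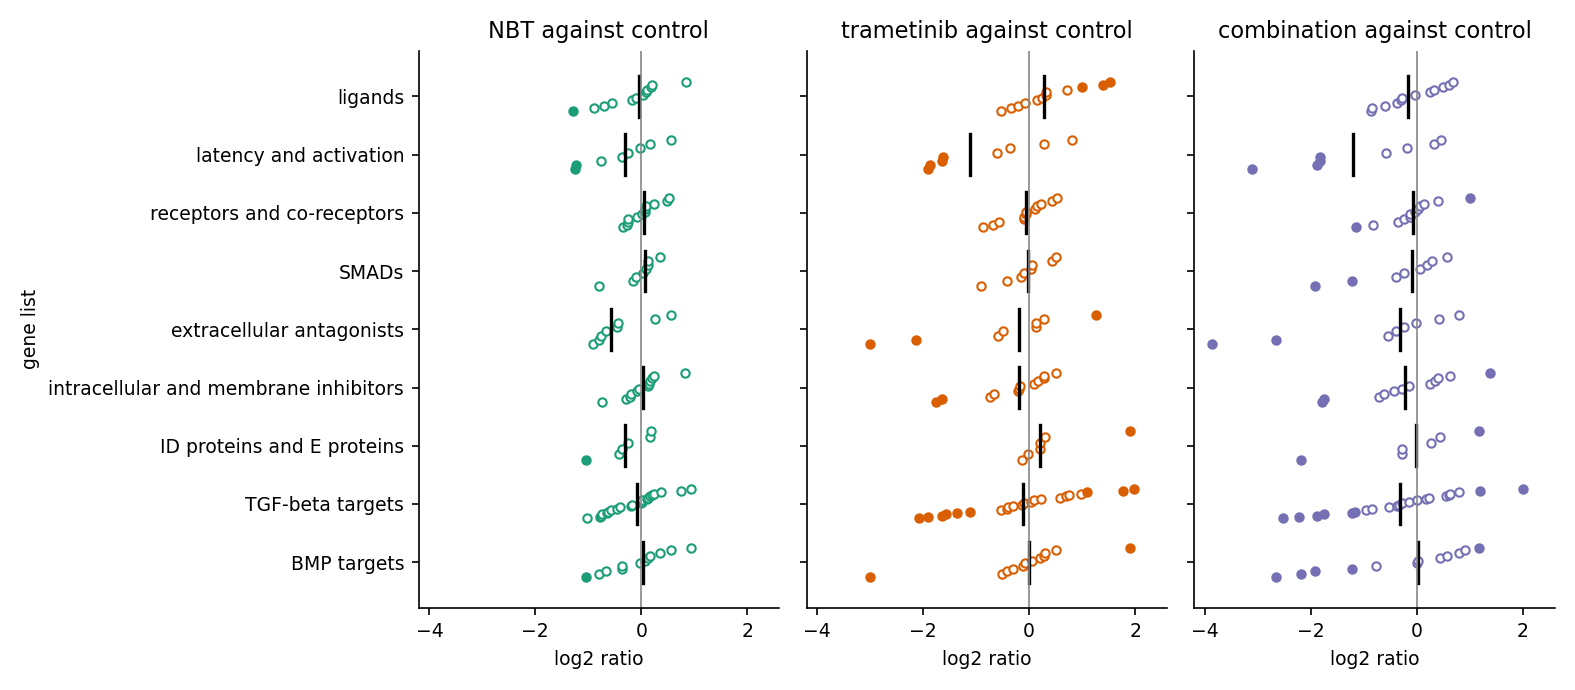
Log2 ratio against control of the genes of each pathway list with a mean of at least 10 reads, 1 point per gene, members included, filled where called, with the median of the list as a black bar. The median of the latency and activation list lies at -1.12 for trametinib and -1.21 for the combination, and the medians of the SMADs lie between -0.10 and 0.07.

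Genes that hold TGF-beta latent or free it had medians of -0.31 for NBT, -1.12 for trametinib and -1.21 for the combination, over 8 genes, of which 6 were below 0 and 2 above in each. Called were 2 of 10 tested with NBT, 4 of 11 with trametinib and 4 of 10 with the combination, all lower. Of all genes tested, 1.01%, 2.15% and 3.69% were called lower in these comparisons. Above 0 with the combination were LTBP4 (log2 ratio 0.46) and ITGAV (0.32), neither of them called and both named after their values were seen. THBS1, thrombospondin 1, which can activate latent TGF-beta, fell from 35644 reads in the control library to 15574 under NBT, 9858 under trametinib and 4282 under both. Its log2 ratios of -1.24 and -1.87 for the single drugs summed to -3.11, and the combination gave -3.12. ITGB5 and LTBP3, an integrin subunit and a latent TGF-beta binding protein, fell with trametinib (log2 ratios -1.64 and -1.63) and with the combination (both -1.82). ITGB8, an integrin subunit that activates TGF-beta, had 319 reads in the control library, 140 with NBT, 567 with trametinib and 292 with both drugs, and fell with NBT (log2 ratio -1.24).

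Of the 8 SMADs only the members SMAD6 and SMAD7 were called, both with the combination. SMAD4, the common partner, had 198, 184, 180 and 215 reads in the control, NBT, trametinib and combination libraries, so its RNA was present. SMAD3 had 1698 reads in the control library and 918 with trametinib, a log2 ratio of -0.90 (interval -1.02 to -0.78), and was not called. Of 16 receptors in the table none was called with NBT. ACVR1C rose with trametinib from 2 to 14 reads, and TGFBR3 fell with the combination from 39 to 18 reads. Both had few reads and are named after their values were seen. ACVR1, a BMP type I receptor, rose with the combination from 531 to 1111 reads. Its log2 ratio of 1.00 (interval 0.85 to 1.15) was only just past the limit of size. BMPR2, the BMP type II receptor, had 400, 350, 548 and 352 reads in the 4 libraries and was not called. Of 24 ligands in the table, TGFB2 alone was called of 21 tested with NBT. With trametinib 3 others rose of 22 tested, and with both drugs none of 23 tested was called. Those 3 had few reads: INHA went from 23 to 47, INHBA from 22 to 59 and BMP2 from 10 to 30. INHA was only just past the limit of size (log2 ratio 1.00, interval 0.27 to 1.80). These 3 ligands too are named after their values were seen. Beside these lists, the NBT library had 2.61% of all genes tested called against control. The trametinib library had 5.96% and the combination library 8.42%.

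Of the 13 secreted antagonists in the table none was called with NBT, 1 rose and 2 fell of 12 tested with trametinib, and 2 fell of 11 tested with the combination. The falling ones were FST and NOG in both comparisons, and NOG, at 51 reads in the control library, 6 with trametinib and 8 with the combination, is named after its values were seen. FST, follistatin, which binds activins, had 313 reads in the control library, 192 with NBT, 72 with trametinib and 22 with both drugs, and fell with trametinib by 2.13 and with the combination by 3.86 on the log2 scale. FSTL3, its relative, had 1441, 855, 3474 and 2011 reads in the same order and rose with trametinib (log2 ratio 1.26). Of 13 genes for intracellular and membrane inhibitors, PMEPA1 and NEDD4L fell both with trametinib (log2 ratios -1.64 and -1.75) and with the combination (-1.76 and -1.80). PMEPA1 sequesters receptor-regulated SMADs and NEDD4L is a ubiquitin ligase that marks them. TGIF1, a SMAD corepressor, rose with the combination from 352 to 953 reads (log2 ratio 1.37). For scale, the trametinib library had 5.96% of all genes tested called against control (3.82% higher and 2.15% lower). The combination library had 8.42% (4.73% higher and 3.69% lower), and the NBT library 2.61%.

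Among 24 TGF-beta targets 1 was called higher with NBT. Trametinib had 3 higher and 6 lower, and the combination 2 higher and 6 lower. Over all genes, 2.61%, 5.96% and 8.42% were called in either direction. The call with NBT was SNAI1, at 1 read in the control library and 10 with NBT, named after its values were seen. The 6 lower with the combination include the member SMAD7. The cell cycle inhibitors CDKN1A and CDKN2B rose with trametinib (log2 ratios 1.78 and 1.99) and with the combination (2.0 and 1.19). HMGA2, a chromatin protein, fell in the same libraries (log2 ratios -2.07 and -2.52), as did CCN2, a matrix-associated protein (-1.57 and -2.23). BHLHE40, a transcription repressor, had 932 reads with trametinib and 360 with the combination and fell between these libraries (log2 ratio -1.42). Of the 15 BMP targets present, NBT had 1 called of 14 tested, trametinib 2 of 15 and the combination 5 of 15, where the shares over all genes were again 2.61%, 5.96% and 8.42%. Of these 5, the members were ID1, SMAD6 and SMAD7 (lower) and ID2 (higher), and the other was NOG, an antagonist of BMPs (lower). The median of the 12 BMP targets with a mean of at least 10 reads was 0.01 with the combination, and 6 of the 12 were above 0.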

How the data were processed

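RNA of 4 cell samples, 1 per condition, was measured. The authors deposited estimated counts, TPM and FPKM values per gene (16834) and per RefSeq transcript (70268). The submitters' processing notes name Bowtie2 2.2.5, RSEM 1.2.8 and the build hg38, and the paper's methods name FPKM and a Poisson-based comparison. The labels describe removal of bacterial ribosomal RNA and random priming, and whether strand was kept is not given in the sources used here. The deposited estimated counts are not normalized, the deposited TPM values are scaled to transcript length and then to the same total in each library, and the deposited FPKM values, scaled to length and mapped fragments, were read but not used.

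Titles and treatment labels gave each library's condition. The cell line field of the labels carries another number in each sample, so the name MIA PaCa-2 follows the titles. Estimated counts were rounded. Reads of SKIL, TGFB1 and TGFBR2 were split by the estimation (not within 0.005 of a whole number), as were those of 53.9% of genes, and reads shared with overlapping genes cannot be told apart there. Log2 ratios were computed with 0.5 reads added to each count before scaling to library sums (between 18776212 and 19614763 counts). Genes with 1 count or more in either library entered an exact two-sided binomial test, adjusted by the Benjamini-Hochberg method, and were called at 0.05 with a log2 ratio of 1 or more in size, as in the study's methods. No p-value is given, because 2 libraries are compared. Intervals are 95% Clopper-Pearson intervals, and 3 counts, the limit that a count of 0 allows, are at most 0.16 CPM (counts scaled to library size). Departures from additivity used genes with at least 50 counts in a library and Poisson errors. Medians of lists used genes with a mean of at least 10 counts.

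The members, lists and motifs were chosen with earlier results of these data known. Named from the lists were genes called in any comparison with 100 counts or more in the higher of both libraries, at most 6 per list, plus ID4, SMAD4, SMAD3, TGFBR1 and BMPR2. Promoters came from the RefSeq table for GRCh38.p14, in which all 10 members matched. Alternatives were TMM scaling (edgeR 4.0.16), median-of-ratios scaling (DESeq2 1.42.0), deposited TPM with 0.1 added, 5 reads added, a minimum of 10 counts, summed transcript counts, and edgeR's exact test under a coefficient of variation set to 0.2 or 0.4. Python 3.11.15, scipy 1.17.1, statsmodels 0.14.6 and R 4.3.3 were used, and the procedure was tested on simulated data. The simulated libraries held counting error only, without spread between cultures, so they cannot show whether calls would hold across cultures.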

Additional observations from a re-analysis of the deposited data

Results flagged for a closer look

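For ID1 and SMAD6 the effect of trametinib differed with and without NBT, by a counting interval over 1 library per condition and not by a test across replicates. The departure from the sum of the single drugs was -2.12 on the log2 scale for ID1 and -1.65 for SMAD6. In reads, trametinib against control was 192 against 154 for ID1 and 107 against 74 for SMAD6, whereas the combination against NBT was 35 against 123 and 20 against 44.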

How the results depend on the processing

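Of 250 log2 ratios of the members recomputed under 5 alternatives (TMM, median-of-ratios, deposited TPM, 5 reads added, summed transcripts), 246 stayed within their counting interval and 0 changed direction. The 4 others were all TGFB1: -0.27 and -0.46 with TPM for NBT and the combination against control, and -0.60 with both scalings for trametinib against control. With 5 reads added ID2 was no longer called for the combination against control, and SMAD6 no longer for the combination against NBT, as also with TPM.

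The counts of calls depend on the spread assumed between cultures, which these data cannot give. With a coefficient of variation of 0.2, the genes called were 69 for NBT, 365 for trametinib and 547 for the combination against control, 204 for the combination against NBT and 302 against trametinib. Members called were 0 for NBT, 2 for the combination (ID1 and SMAD6) and 1 for the combination against NBT (ID1), while ID3 stayed called with trametinib, and ID1, ID3 and SMAD6 for the combination against trametinib. With 0.4 the genes called were 4, 22, 51, 13 and 14 in that order, and 0 members in each. With a departure limit of 2 in place of 1, 1 member (ID1) departed from additivity. No paired analysis was possible because each condition has 1 library, and no library could be left out for the same reason. Depth limits ID2 and BAMBI most, at no more than 29 and 6 reads.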
